A study of Mus musculus with 8 samples.

Results

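Nuclear genes of the mitochondrial respiratory chain were followed through 4 groups of mouse cells, by complex. They were taken by symbol from the deposited table of fragments: Nduf with a, b, c, s or v and a number, Sdha to Sdhd, Uqcr, Cox4 to Cox8 and Atp5. The rule found 85 of the 22558 genes listed. Of these, 35 encode subunits of complex I, 4 of complex II, 8 of complex III, 20 of complex IV (Ndufa4 and its relative Ndufa4l2 were counted there) and 15 of complex V. The other 3, Cox4nb, Atp5s and Atp5sl, carry a matching symbol but encode no subunit, and they were counted apart. A filter on low values left 82 of the 85 to be tested. Cox4i2, Cox7b2 and Cox8c, isoforms of complex IV subunits, had too few fragments, and Cox7b2 had 0 in every library.

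RNA was sequenced from 8 libraries, 2 per group. In 3 groups, cells with surface fibroblast activation protein (FAP), a serine protease of stromal cells, had been sorted from visceral adipose tissue, skeletal muscle or pancreas after dissociation; the labels name those of pancreas stellate cells. The reference group was of embryonic fibroblasts (MEFs), sorted as FAP-negative, cultured for 3 passages and sorted again. No strain, age, sex or treatment is given for any group, and the duplicates were separate experiments. Every comparison with MEFs therefore also sets cells taken from tissue against cultured embryonic cells, and these cannot be told apart here. In such bulk samples, fewer cells of a type and less RNA per cell cannot be told apart either.

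The respiratory chain sits in the inner membrane of the mitochondrion. Complex I (NADH dehydrogenase) and complex II (succinate dehydrogenase, also an enzyme of the tricarboxylic acid cycle) pass electrons to ubiquinone, complex III passes them to cytochrome c and complex IV (cytochrome c oxidase) to oxygen. Complexes I, III and IV pump protons, and complex V, the ATP synthase, uses the gradient to make ATP. Mitochondrial DNA encodes part of the core of all complexes but complex II, and the nuclear genes encode the other subunits. Several complex IV subunits come as a widespread isoform and one of heart and skeletal muscle or of brown fat. The table lists none of the 13 mitochondrially encoded subunit genes.

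Promoters of these genes are known for sites of NRF1, a transcription factor of nuclear genes for mitochondria, so its core motif was searched first. RefSeq windows (build GRCm38.p6) from 250 bases before to 50 bases after the gene start were found for 69 members. The core GCATGCGC, on either strand, stood in 10 of the 69 (14.5%), against 3.05% of 27025 genes. Each match stands within 30 bases of the gene's strand, 5′ to 3′, with the core in capitals. Uqcrc1 was lower than in MEFs in muscle and pancreas, and 7 were called in no comparison with MEFs. Ndufa6 and Ndufa11 were called higher in adipose, where library 1 of the 2 carried most of the rise (8.95 and 9.14 times library 2).
Uqcrc1, complex III core, chr9:108936668-108936697, plus strand: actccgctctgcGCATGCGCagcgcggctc
Ndufa6, complex I, chr15:82354356-82354385, minus strand: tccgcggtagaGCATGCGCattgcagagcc
Ndufa11, complex I, chr17:56717693-56717722, plus strand: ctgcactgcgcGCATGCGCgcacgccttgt
Ndufa8, complex I, chr2:36049328-36049357, minus strand: tcgctggagacGCATGCGCagatggtaccg
Sdhb, complex II, chr4:140961206-140961235, plus strand: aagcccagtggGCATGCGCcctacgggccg
Uqcr11, complex III, chr10:80406807-80406836, minus strand: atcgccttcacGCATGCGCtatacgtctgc
Cox6a1, complex IV, chr5:115349100-115349129, minus strand: aggaacggggcGCATGCGCgctctcgctcc
Atp5g2, complex V, chr15:102671069-102671098, minus strand: gctccggccgcGCATGCGCagagccttccc
Atp5k, complex V, chr5:108434429-108434458, minus strand: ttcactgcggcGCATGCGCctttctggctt
Atp5l, complex V, chr9:44920963-44920992, minus strand: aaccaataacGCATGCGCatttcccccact

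Atp5b, which encodes the catalytic beta subunit of ATP synthase, had the highest level of all members in MEFs and fell in all 3 FAP+ populations. Its 250 bases before the start (chr10:128083057-128083306, plus strand) are shown because they hold 5 CCAAT boxes on either strand, in capitals as CCAAT or ATTGG.
Atp5b: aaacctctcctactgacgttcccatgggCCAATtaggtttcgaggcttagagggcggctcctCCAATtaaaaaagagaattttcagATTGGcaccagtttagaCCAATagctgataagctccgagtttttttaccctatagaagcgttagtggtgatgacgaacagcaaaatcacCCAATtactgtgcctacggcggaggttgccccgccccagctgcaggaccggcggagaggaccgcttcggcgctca
At least 4 such boxes stood in 0.977% of genes and in 3 of the 69 members (4.35%), and at least 1 in 37.5% and 44.9%. Ndufa9 and Uqcrfs1, which also fell in all 3 populations, had 0 in the same stretch. A motif match describes the letters of the window only.

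The libraries held 15516319 to 27759399 estimated fragments, of which the gelsolin gene Gsn alone took 10.9% to 17.8% in FAP+ cells and 0.291% to 0.308% in MEFs, a share that FPKM does not correct for. Levels below are normalized fragments in CPM (per 1000000 fragments of the library, after TMM scaling), and members were compared with one another in FPKM, which is per length. A gene was called where edgeR's quasi-likelihood test gave a Benjamini-Hochberg adjusted p below 0.05 over the 14847 genes tested. Summed CPM of 8 fibroblast markers was 21595 to 49112 in the FAP+ libraries and 3590 to 4791 in MEFs, with all 8 above 0 in every library. Skeletal muscle fibre markers summed to 64.0 and 78.6 CPM in muscle, 102 and 41.9 in adipose, 68.5 and 59.8 in pancreas and 28.7 and 24.7 in MEFs. Acinar markers summed to 160.4 and 74.2 CPM in pancreas and at most 6.10 elsewhere, and brown adipocyte markers to at most 7.66 in any library.

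Adipose library 1 stood apart from every other library in these genes. Of 80 members with fragments in both adipose libraries, 72 were higher in library 1, 60 of them by more than 2-fold, with a median ratio of 4.71. The median ratio over all genes was 0.954. The members are short genes, with a median length of 686.5 bases against 2544 over all genes, and the ratio followed length. It was 6.57 for the 51 members under 1000 bases and 1.42 for the 29 others, and across members its Spearman correlation with length was -0.727 (n = 82 genes of the same 2 libraries). Among the 29, 11 were nonetheless more than 2-fold higher in library 1, such as Ndufa11 (2661 bases, ratio 9.14) and Ndufv3 (2066 bases, 7.48). Over all genes the median ratio was 1.65 in the shortest 25% of genes (up to 1886 bases) and 0.910, 0.806 and 0.786 in the 3 classes of longer genes. The 71 members in the shortest class had 4.98, above all genes of that class, and on whole reads the values were 3.38 and 1.22. Cytosolic ribosomal protein genes, also short, had a median log2 difference from the MEF mean of 1.98 in library 1 and -0.43 in library 2. In the other groups the 2 libraries differed far less, with median member ratios of 1.23 in muscle, 1.21 in pancreas and 0.794 in MEFs. These ratios also varied with length, at Spearman correlations across members of -0.172, -0.549 and 0.585 in that order.

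Among members at 10 CPM or more in adipose library 2, the ratio was highest for Ndufa2 (11.5), Cox6c (10.7) and Atp5k (10.5). They encode small accessory subunits of complexes I, IV and V. It was lowest for Uqcrc2 (0.642), Atp5a1 (0.680) and Cox4nb (0.754). Whole reads recovered from the deposited RPKM values, which are whole multiples of what 1 read is worth, gave a median member ratio of 3.01. Library 1 also had more of the white adipocyte markers (7 of 7 above 0 in both libraries, 6481 against 798 CPM, nearly all of it Fabp4, a lipid carrier that capillary endothelium also expresses) and of the erythroid markers (1414 against 134 CPM), while endothelial markers summed to 403 and 558 CPM. Adipoq and Plin1, which define adipocytes, were at 3.53 and 4.70 CPM in library 1 and at 1.95 and 5.78 in library 2. The part of length, of these markers or of RNA quality in the adipose values was not tested. Adipose counts by complex and by gene list, or medians for ribosomal proteins, are given with and without library 1.

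**Figure D1:**
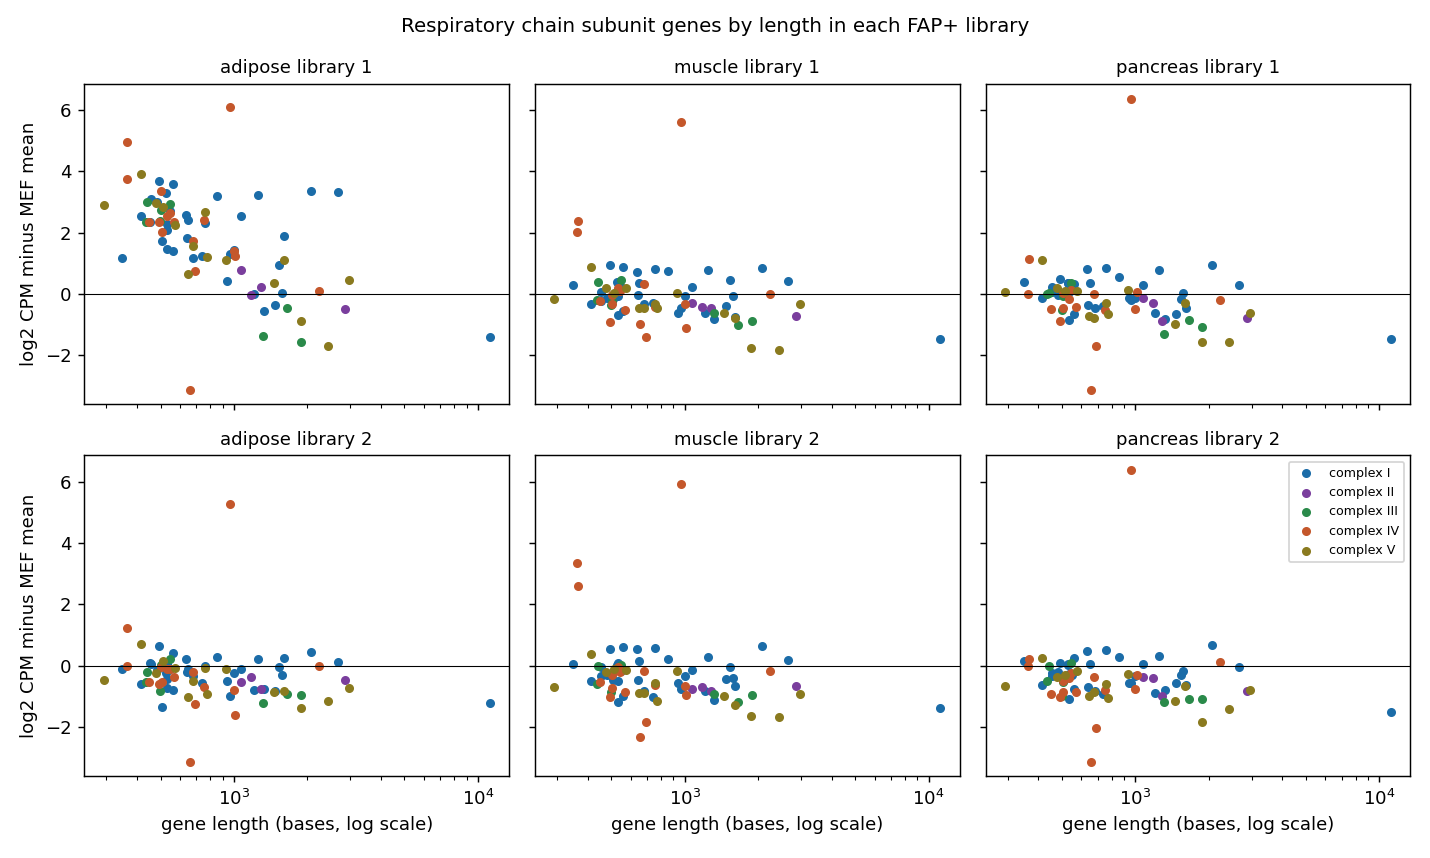
Difference of each subunit gene's log2 CPM (0.1 added) from the MEF mean, on the vertical axis, by gene length in bases on a log axis, in the 6 FAP+ libraries; colours mark complexes I to V. In adipose library 1 the points climb towards short genes, with most members under 1000 bases above 0, while in the other 5 libraries they lie nearer to 0.

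**Figure D2:**
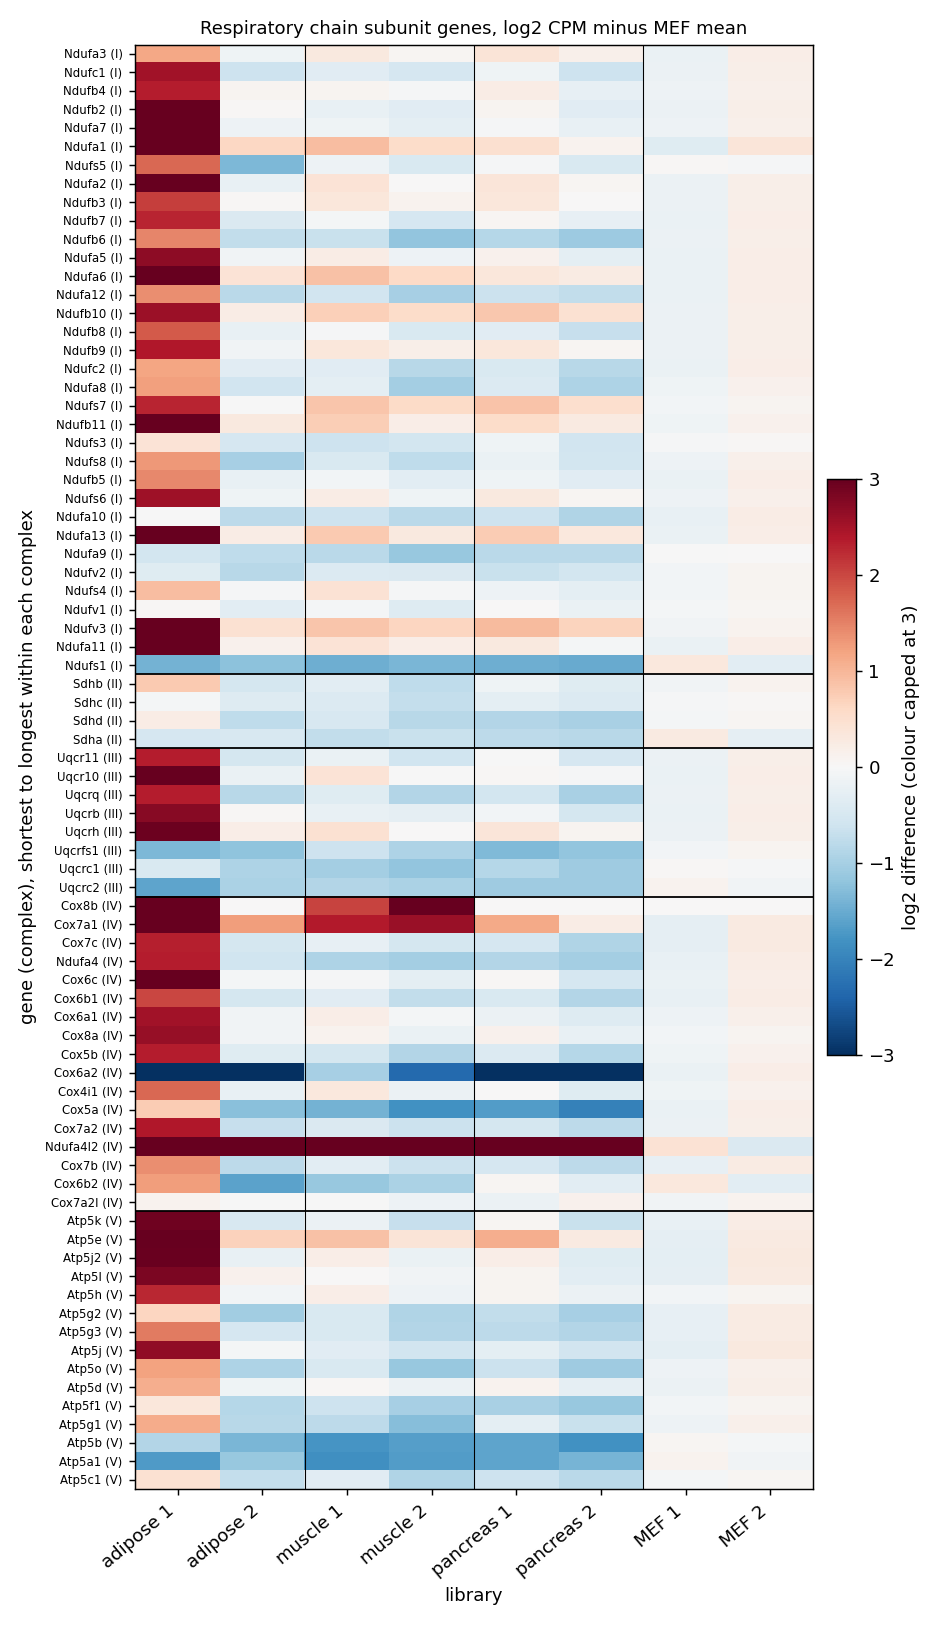
Subunit genes tested, with 1 not shown (rows, by complex and then from shortest to longest) in the 8 libraries (columns); colour gives log2 CPM (0.1 added) minus the MEF mean, capped at 3 in either direction. The adipose library 1 column is red for most short genes, Ndufs1, Uqcrfs1, Uqcrc1, Uqcrc2, Atp5b and Atp5a1 are blue in all 6 FAP+ columns, and Ndufa4l2 is red in all 6.

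Across FAP+ cells of 3 tissues, 6 subunit genes were lower than in MEFs. The genes Atp5a1 and Atp5b (alpha and beta subunits of ATP synthase), Ndufs1 and Ndufa9 (complex I), and Uqcrc2 and Uqcrfs1 (complex III) fell in all 3 populations. These 6 of 82 members compare with 13.5% of all genes tested that were lower in all 3. All 6 are among the 29 tested members of 1000 bases or more, which held 8 of the 9 lower calls in adipose, 7 of 7 in muscle and 8 of 10 in pancreas. With a length trend per library as an offset in the fit (the length offset), these long members held 11 of 18, 9 of 21 and 12 of 25, and the part of length in the calls was not tested. The 3 comparisons share the MEF libraries, so an overlap between them is not independent. Each of the 18 falls kept its direction in all 18 other settings tried, which called it in 10 to 18 of them. One member, Ndufa4l2, was higher in all 3, against 16.5% of all genes, and 57 of the 82 were called in no comparison with MEFs.

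Atp5a1 stood at 725 and 619 CPM in MEFs. The adipose libraries had 207 and 304, those of muscle 186 and 211 and those of pancreas 224 and 254. All 6 FAP+ values lay below both MEF values, 2.63-fold lower in adipose (log2 -1.40 ± 0.30 SE, adjusted p = 0.00738, edgeR), 3.38-fold in muscle and 2.81-fold in pancreas (edgeR adjusted p = 0.00311 and 0.00639). Atp5b stood at 1127 and 1037 CPM in MEFs, against 591 and 418 in adipose, 318 and 344 in muscle and 362 and 305 in pancreas. It was 2.14-fold lower in adipose (log2 -1.10 ± 0.30), 3.27-fold in muscle and 3.24-fold in pancreas (edgeR adjusted p = 0.0187, 0.00353 and 0.00382). Together these subunits form the catalytic head of complex V.

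Ndufs1 encodes the largest complex I subunit, which carries iron-sulfur clusters. It had 281 and 184 CPM in MEFs and 79.9 to 96.6 CPM in the 6 FAP+ libraries, which were close to one another. The fold was 2.55 lower in adipose (log2 -1.35 ± 0.28), 2.75 in muscle and 2.87 in pancreas (edgeR adjusted p = 0.00641, 0.00517 and 0.00452). Ndufa9, an accessory subunit near the ubiquinone site, had 66.7 CPM in both MEF libraries and 30.5 to 45.2 in FAP+ cells. It fell 1.58-fold in adipose, 1.95-fold in muscle and 1.75-fold in pancreas (edgeR adjusted p = 0.0456, 0.0126 and 0.0253). The other core subunit named, Ndufv1 (the NADH-binding flavoprotein), had 106 and 113 CPM in MEFs and 83.5 to 111 in FAP+ cells. Its log2 differences of -0.13, -0.22 and -0.08 did not pass (adjusted p = 0.691, 0.527 and 0.816, edgeR).

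In complex III, the Rieske iron-sulfur protein gene Uqcrfs1 had 69.2 and 76.8 CPM in MEFs. The adipose libraries had 28.4 and 31.4 CPM, those of muscle 47.6 and 38.2, and those of pancreas 29.1 and 32.0. The fold was 2.44 lower in adipose, 1.70 in muscle and 2.39 in pancreas (edgeR adjusted p = 0.00366, 0.0316 and 0.00465). Uqcrc2, a core protein, had 84.9 and 73.1 CPM in MEFs and 26.3 to 43.1 in FAP+ cells, 2.35-fold lower in adipose, 1.89-fold in muscle and 2.11-fold in pancreas (edgeR adjusted p = 0.00839, 0.0285 and 0.0161). Its partner Uqcrc1 fell 2.14-fold in muscle and 1.95-fold in pancreas (edgeR adjusted p = 0.0147 and 0.0251). In adipose it had 197 and 141 CPM against 275 and 265 in MEFs, and this difference missed the threshold (edgeR adjusted p = 0.0732).

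**Figure D3:**
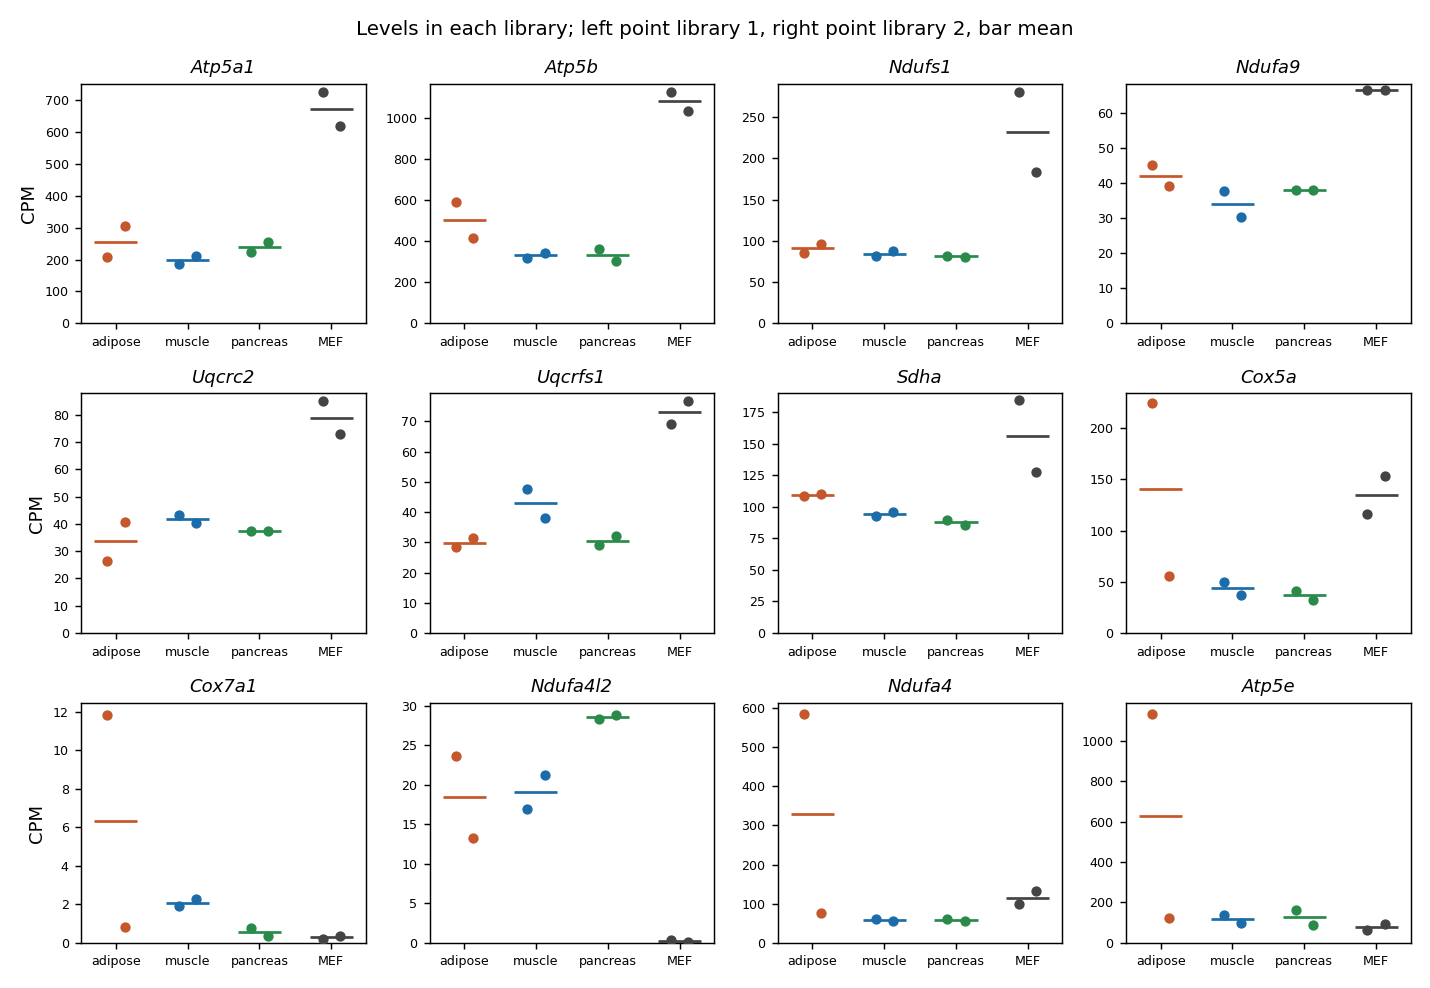
CPM of 12 members in each library (left point library 1, right point library 2, bar their mean), by group; each panel has its own axis from 0. Atp5a1, Atp5b, Ndufs1, Ndufa9, Uqcrc2 and Uqcrfs1 lie below both MEF values in all 6 FAP+ libraries, Ndufa4l2 above them, and Cox5a, Cox7a1, Ndufa4 and Atp5e show the gap between the adipose libraries.

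Ndufa4l2 encodes a relative of Ndufa4 that is known as a target of hypoxia-inducible factor. It was the member with the clearest rise, from 0.37 and 0.16 CPM in MEFs (12 and 5 fragments) to 23.7 and 13.3 in adipose, 17.0 and 21.2 in muscle and 28.4 and 28.9 in pancreas. Low fragment numbers in MEFs make the fold uncertain: by fragments, adipose had 65.9 times the MEF value (95% counting interval 40.8 to 114), muscle 76.2 times (47.3 to 131) and pancreas 112 times (69.4 to 192). The intervals cover counting error only. The test gave log2 6.14 ± 0.50, 6.19 ± 0.50 and 6.77 ± 0.51 (edgeR adjusted p = 0.000102, 0.000118 and 8.67e-05), and every one of 18 other settings called it higher in all 3 tissues. Ndufa4l2 made up 0.190% and 0.0619% of the FPKM of the pair with Ndufa4 in MEFs. Its share was 2.03% and 8.25% in adipose, 12.7% and 16.2% in muscle and 19.1% and 20.8% in pancreas.

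Ndufa4, the widespread member of that pair and a subunit of complex IV, had 98.6 and 132 CPM in MEFs, 59.8 and 56.2 in muscle and 61.6 and 56.2 in pancreas. The values of both tissues lay below those of MEFs, but the differences of log2 -0.99 and -0.97 did not pass (edgeR adjusted p = 0.313 and 0.327). In adipose Ndufa4 had 586 and 75.4 CPM, on either side of the MEF values.

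In muscle FAP+ cells 1 member rose and 7 fell, 9.76% of those tested, against 43.8% of all genes called (23.7% higher and 20.0% lower). In pancreas FAP+ cells 1 rose and 10 fell, 13.4% of members against 42.5% of all genes (23.1% higher and 19.4% lower). This fit estimated each gene's spread over all 8 libraries, so the gap between the adipose libraries entered these tests too. A member not called here is therefore not shown to be unchanged. How far that gap set the number of calls was not tested, and counts from fits of only the groups compared are given below. The median log2 difference of the members was -0.35 in muscle and -0.28 in pancreas, against 0.03 and 0.02 over all genes. Of 35 complex I genes 2 fell in each tissue, Ndufs1 and Ndufa9, and none rose. Complex III had 3 of 8 lower in each, and complex V 2 of 15, its alpha and beta subunits.

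The 4 genes of complex II had negative differences in both tissues, with medians of -0.60 and -0.59. Sdha, the flavoprotein that oxidizes succinate, had 185 and 128 CPM in MEFs, 92.5 and 96.0 in muscle and 89.2 and 85.8 in pancreas. It fell 1.78-fold in pancreas (adjusted p = 0.0369) and missed the threshold in muscle (log2 -0.73, adjusted p = 0.0575), both by edgeR. Sdhb, the iron-sulfur subunit, had 101 and 118 CPM in MEFs and 64.9 to 99.6 in those tissues (adjusted p = 0.349 and 0.659, edgeR).

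In complex IV, Cox5a, a subunit on the matrix side, had 116 and 153 CPM in MEFs, 50.2 and 37.5 in muscle and 41.4 and 32.4 in pancreas. It fell 3.65-fold in pancreas (log2 -1.87 ± 0.58, adjusted p = 0.0345). In muscle the difference was log2 -1.62 ± 0.58 and missed the threshold (adjusted p = 0.0540), again by edgeR. The widespread isoform genes differed from MEFs by less than their SE: Cox4i1 by log2 0.08 in muscle and -0.17 in pancreas, Cox6a1 by 0.07 and -0.28, Cox8a by -0.04 and -0.04, and Cox7a2l, a supercomplex factor, by -0.08 and -0.03. Their edgeR adjusted p values were 0.767 to 0.971. Cox5b had -0.70 and -0.62, Cox6b1 -0.54 and -0.66 and Cox7a2 -0.54 and -0.67, also short of the threshold (0.453 to 0.598).

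More members lay apart from MEFs without overlap than passed the test, and this held over all genes too. Both muscle libraries lay below both MEF libraries for 44 of 82 members and above them for 12, where all genes gave 40.2% and 41.9%. In pancreas 41 lay below and 7 above, where all genes gave 39.4% and 41.0%. The proteolipid genes Atp5g1, Atp5g2 and Atp5g3, whose mature product is the same ring subunit of ATP synthase, were below MEFs without overlap in both tissues. Their log2 differences were -1.02, -0.68 and -0.67 in muscle and -0.48, -0.88 and -0.85 in pancreas (edgeR adjusted p 0.178 to 0.518). A fit of muscle and MEFs alone called 6 members higher and 21 lower, where it called 61.3% of all genes, and one of pancreas and MEFs alone 4 and 23, where it called 58.7%. With the length offset the counts were 3 and 21 in muscle and 1 and 25 in pancreas (all genes 48.2% and 47.4%). By limma on log2(FPKM + 1) they were 1 and 25 in muscle and 1 and 19 in pancreas (all genes 29.6% and 27.0%). The all-gene shares of alternative fits in this paragraph are of both directions together, so no share of lower calls stands beside them. Whole reads gave 2 and 10 in muscle and 1 and 13 in pancreas (all genes 55.7% and 53.6%), and without adipose library 1 in the fit, 11 and 29 and 6 and 31 (all genes 66.2% and 65.0%).

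**Figure D4:**
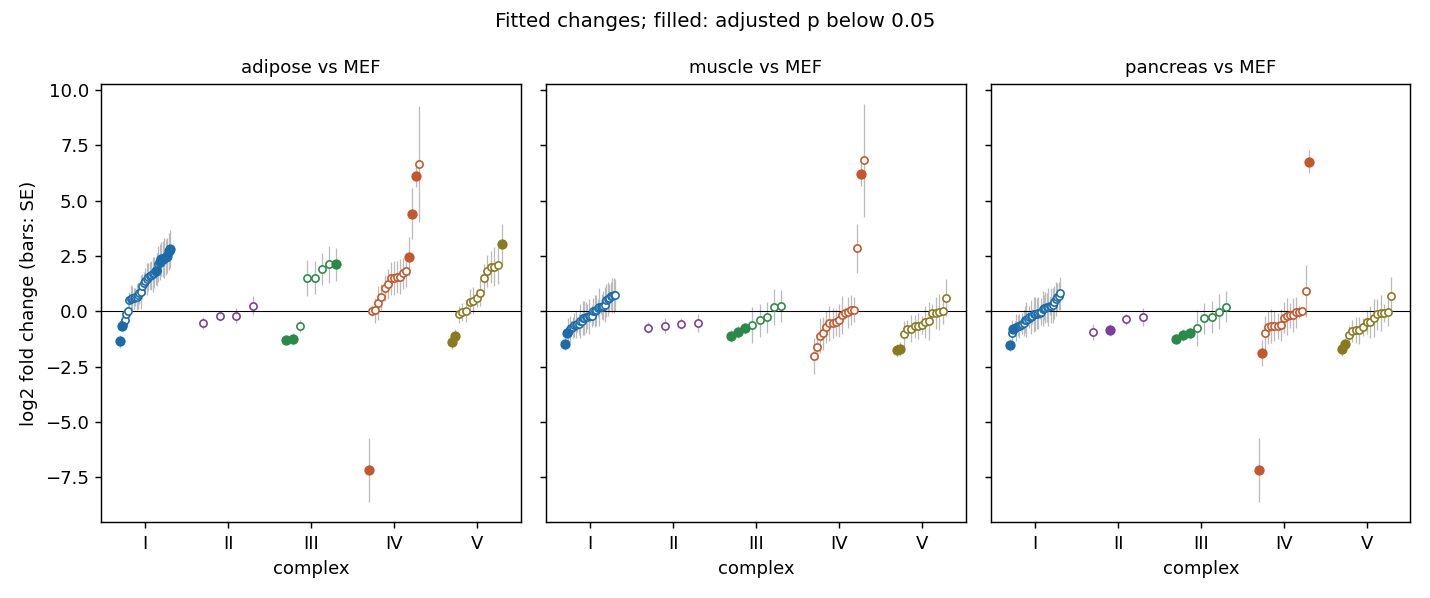
Fitted log2 fold change of each subunit gene against MEFs (bars: SE) by complex, sorted within a complex, for adipose, muscle and pancreas FAP+ cells; filled points passed an adjusted p of 0.05. In muscle and pancreas most points lie just below 0 with few filled, and in adipose most lie above 0 with wide bars.

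In adipose FAP+ cells 13 members were called higher and 9 lower than in MEFs, 26.8% of those tested, where 50.1% of all genes were called (26.9% higher and 23.2% lower). The median log2 difference was 1.18 over members and 0.05 over all genes. By complex, 8 higher and 2 lower were of complex I, none of complex II, 1 and 2 of complex III, 3 and 1 of complex IV and 1 and 2 of complex V. Without library 1 the fit called 1 member higher, Ndufa4l2, and 20 lower, with a median of -0.38, where all genes gave 25.7% and 23.2%. The lower calls were then 7 of complex I, 1 of complex II, 3 of complex III, 3 of complex IV and 4 of complex V, with 2 of no subunit. Without library 2 it called 59 higher and 9 lower, with a median of 1.84, where all genes gave 32.0% and 29.6%. With the length offset, 10 were higher and 18 lower (median -0.10, all genes 27.2% and 26.6%). On log2(FPKM + 1), which has no TMM scaling, limma called 1 higher and 24 lower (median -0.34, all genes 8.03% and 29.0%). On whole reads 9 were higher and 12 lower (56.6% of all genes called), DESeq2 called 36 and 8 (46.1%), and a fit of adipose and MEFs alone 2 and 2 (32.9%). On whole reads without library 1, a setting chosen after seeing the data, 1 was higher and 30 lower (55.5%). The direction of the members as a set in adipose therefore depended on the library left out. It also differed between edgeR and limma on FPKM, which differ in measure, filter and scaling together.

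The 9 lower calls held without library 1, all 9 of them: the 6 shared genes, Cox6a2, Cox4nb and Atp5sl. Cox4nb (now Emc8, of the endoplasmic reticulum membrane complex) and Atp5sl (now Dmac2, an assembly factor) are no subunits. Cox4nb had 10.6 and 14.0 CPM in adipose against 24.9 and 28.4 in MEFs, and Atp5sl 3.61 and 4.86 against 10.6 and 10.2. Their falls were 2.16-fold and 2.45-fold (edgeR adjusted p = 0.0092 and 0.00766).

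Of the 13 higher calls, Ndufa4l2 alone held without library 1. The other 12 were Ndufa1, Ndufa6, Ndufa11, Ndufa13, Ndufb2, Ndufb10, Ndufb11 and Ndufv3 of complex I, Uqcrh of complex III, Cox6c and Cox7a1 of complex IV and Atp5e of complex V. Most are small accessory subunits that add no redox centre. Ndufa1 had 398 and 47.4 CPM in adipose against 24.0 and 39.2 in MEFs, and Atp5e (the epsilon subunit) 1133 and 123 against 62.2 and 91.6. Their fitted log2 changes of 2.82 ± 0.84 and 3.03 ± 0.90 (edgeR adjusted p = 0.0259 and 0.0256) became 0.58 and 0.67 without library 1. Uqcrh, the hinge protein of complex III, had 824 and 123 CPM against 94.7 and 121, and its log2 change of 2.13 became 0.19. In adipose library 2, 9 of these 12 lay above both MEF values, while Cox6c, Ndufb2 and Ndufa11 lay between them. The fit that picked the 12 held library 2, so this count is no independent support for a rise. Some margins over the higher MEF value were narrow: 123 against 121 CPM for Uqcrh, 91.1 against 88.9 for Ndufa13 and 58.4 against 56.7 for Ndufb10.

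Other core and paired genes did not pass in adipose. Sdha had 109 and 110.0 CPM there, below both MEF values (log2 -0.51 ± 0.26, edgeR adjusted p = 0.138), and Sdhb 189 and 75.4. The widespread complex IV genes had wide gaps between the libraries, with 952 and 247 CPM for Cox4i1, 1259 and 202 for Cox6a1, 1320 and 199 for Cox8a and 224 and 56.1 for Cox5a. In library 2 alone Cox4i1, Cox8a and Cox5a lay below both MEF values and Cox6a1 between them. Cox7a2l, at 257 and 236 CPM against 222 and 258 in MEFs, had no such gap.

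Muscle and brown fat isoforms of complex IV were the minor form of their pair in every library. Cox7a1, of the heart and muscle type, had 0.22 and 0.37 CPM in MEFs, against 11.9 and 0.82 in adipose, 1.91 and 2.27 in muscle and 0.75 and 0.36 in pancreas. Both adipose and both muscle values were above those of MEFs. By fragments, adipose had 16.3 times the MEF value (95% counting interval 10.1 to 27.6), muscle 7.43 times (4.47 to 12.9) and pancreas 1.91 times (0.975 to 3.75). The test passed in adipose (edgeR adjusted p = 0.0154) and not in muscle (0.0725) or pancreas (0.557). Library 1 carried the adipose fold: without it the fitted log2 change went from 4.42 to 1.48 and did not pass (edgeR adjusted p = 0.0982). In FPKM, Cox7a1 was 0.861% and 1.11% of the pair with Cox7a2 in MEFs. Its share was 7.10% and 4.35% in adipose, 8.11% and 10.9% in muscle and 3.59% and 2.09% in pancreas.

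Cox6a2, the muscle form of Cox6a1, had 22 and 30 fragments in MEFs, 5 and 2 in muscle and 0 in the 4 adipose and pancreas libraries. Against a floor of 3 fragments per library it was at least 3.43-fold lower in adipose and at least 5.02-fold lower in pancreas (edgeR adjusted p = 0.0103 and 0.0113). Cox8b, of muscle and brown fat, had 5 and 21 fragments in muscle, 16 and 0 in adipose and 0 in pancreas and MEFs. The mean of the 2 muscle libraries was at least 6.72-fold above the same floor in MEFs, most of it from library 2. It did not pass the test (edgeR adjusted p = 0.0773). Cox8b was at most 0.732%, Cox6a2 at most 0.304% and Cox4i2, of lung and hypoxic cells, at most 0.12% of the FPKM of its pair in any library. Cox6b2, of testis, was 1.27% to 4.05% of its pair.

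Members were also ranked per length. In MEFs Atp5b was first at 1097 and 938 FPKM, then Cox4i1 at 705 and 792 and Cox6a1 at 680 and 771, which overlapped. In muscle Cox4i1 (588 and 434) and Cox6a1 (524 and 462) led, with Atp5b at 188 and 213. In pancreas Cox8a (515 and 446) and Cox4i1 (510 and 438) led, again overlapping, with Atp5b at 231 and 216. Both adipose libraries had Atp5b below Cox8a too, at 185 against 1420 FPKM in library 1 and 246 against 404 in library 2.

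No member was called between FAP+ populations. Muscle against adipose gave 0 calls where 6.12% of all genes were called, pancreas against adipose 0 where 9.05% were, and pancreas against muscle 0 where 3.67% were. At an unadjusted p below 0.05 by edgeR there were 43, 39 and 1 members, where all genes gave 24.0%, 26.3% and 14.0%. DESeq2 called 30 (all lower in muscle), 34 (33 lower in pancreas) and 0, where it called 13.0%, 15.0% and 6.51% of all genes. Whole reads gave 1, 6 and 0 calls, where 13.5%, 22.5% and 6.05% of all genes were called. The medians were -1.41, -1.40 and -0.04. Without adipose library 1 the medians against adipose became 0.11 in muscle and 0.02 in pancreas, with 1 call each, where 6.66% and 11.2% of all genes were called. Without adipose library 2 the fit called 65 and 67 members, where all genes gave 35.1% and 33.0%.

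Between pancreas and muscle, Ndufa4l2 was higher in pancreas by log2 0.58 ± 0.37 without overlap, and this did not pass (edgeR adjusted p = 0.619).

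Other genes of the pathway were also counted against MEFs, in the same fit, to be read against 50.1%, 43.8% and 42.5% of all genes called in adipose, muscle and pancreas (lower only: 23.2%, 20.0% and 19.4%). The shares and median log2 differences of each list are given in that order of tissues. Of 29 assembly factors tested, 2 rose and 14 fell in adipose, and 8 fell in each of muscle and pancreas with none higher (adipose without library 1: 1 and 13). That is 55.2%, 27.6% and 27.6% called, with medians of -0.91, -0.63 and -0.56. In adipose the largest changes called were those of Taco1 (log2 -3.36), a translational activator of Cox1, and Tmem70 (-2.06), an ATP synthase factor. In muscle and pancreas they were those of Nubpl (-2.75 and -1.85), which delivers iron-sulfur clusters to complex I, and Cox18 (-1.90 and -1.55). Of 19 genes of the tricarboxylic acid cycle and pyruvate entry, 9 fell in adipose, 9 in muscle and 11 in pancreas, and 1 rose in each (adipose without library 1: 10 fell and 1 rose), or 52.6%, 52.6% and 63.2% called. That gene was Pdk2, a kinase that inhibits pyruvate dehydrogenase, at log2 2.58, 2.02 and 2.10. Citrate synthase (Cs) fell in all 3, from 155 and 140 CPM in MEFs to between 28.4 and 55.1. The median log2 difference of this list was -0.75, -1.09 and -1.07.

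Among 22 electron carriers, coupling and other inner membrane genes (with the outer membrane channels), 3 rose and 9 fell in adipose, 1 and 13 in muscle and 0 and 12 in pancreas (adipose without library 1: 1 and 10). That is 54.5%, 63.6% and 54.5% called, against 50.1%, 43.8% and 42.5% of all genes, with medians of -0.57, -1.02 and -1.02. Vdac1, the voltage-dependent channel, fell in all 3 (202 and 187 CPM in MEFs, 20.4 to 59.6 in FAP+ cells). The adenine nucleotide carrier Slc25a5 fell in muscle and pancreas (log2 -1.80 and -1.89), and the uncoupling protein gene Ucp2 (2.90) and Chchd10 (2.40) rose in adipose. Of 19 regulators, 8 fell in adipose with none higher, 2 rose and 4 fell in muscle, and 2 rose and 5 fell in pancreas (adipose without library 1: 1 rose and 7 fell). That is 42.1%, 31.6% and 36.8% called, with medians of -1.08, -0.68 and -0.55, and the lower calls in muscle and pancreas were near the share over all genes. The coactivator gene Ppargc1b rose in muscle (log2 3.79) and pancreas (3.52) from 0 and 0.58 CPM in MEFs to between 2.54 and 5.48, so its fold is uncertain. Gabpb1, of the factor NRF2, fell in muscle (-1.58) and Hif1a in pancreas (-2.09), while Mterf (-2.86) and Tfb1m (-2.22) fell in adipose.

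Ribosomal proteins were counted in the same way. Of 76 mitochondrial ones, 23 fell in adipose, 23 in muscle and 19 in pancreas, and 3 rose, all in adipose. That is 34.2%, 30.3% and 25.0% called, against 50.1%, 43.8% and 42.5% of all genes (lower only: 23.2%, 20.0% and 19.4%). The medians were -0.45, -0.71 and -0.59. Without adipose library 1 the adipose median was -0.88, against -0.02 over all genes. The largest changes were those of Mrps2 (-2.45) and Mrpl52 (2.42) in adipose, Mrps22 (-2.17) and Mrps18b (-2.09) in muscle and Mrps6 (-2.63) and Mrps22 (-2.03) in pancreas, all log2. Cytosolic ribosomal proteins, 83 short genes outside mitochondria, had 2 higher and 5 lower in adipose, 1 and 4 in muscle and 0 and 3 in pancreas by this fit (8.43%, 6.02% and 3.61% called, medians 1.20, -0.25 and -0.29). Without adipose library 1 their median in adipose was -0.45, against -0.02 over all genes. DESeq2 called 30 higher and 5 lower in adipose, where it called 46.1% of all genes. Named by size among them were Rpl39l (-3.58) in adipose, Rpl39l (1.77) and Rps2 (-1.61) in muscle and Rps2 (-1.59) in pancreas. Rpl39l was also lower in pancreas, with 1 and 0 fragments there against 44 and 66 in MEFs, so its size is uncertain.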

How the data were processed

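RNA from 8 libraries was amplified with MessageAmp and made into libraries with an Illumina mRNA kit, per the labels' protocols. For each gene and library the authors deposited bias-adjusted estimated counts of fragments, FPKM with the same adjustment, and RPKM. Bowtie2, TopHat2, HTSeq, edgeR and the build mm9 stand in the submitters' processing notes, without roles or order; the program that adjusted for bias was not given in the sources used here. Columns were matched to samples by name, 8 per deposited file, and 6 further columns of each were not used.

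The design assumed counts; as the deposited counts were estimated, they were rounded for the quasi-likelihood test of edgeR (4.0.16 in R 4.3.3; TMM, filterByExpr, all 8 libraries in 1 fit, no covariate), which left 4 residual degrees of freedom. TMM factors were 0.516 and 0.889 in adipose, 1.01 to 1.13 in muscle and pancreas and 1.31 in both MEF libraries. P-values measure the spread between 2 experiments a group, estimated for each gene over all 4 groups together. The step of the deposited RPKM gave whole reads for 21784 genes (100% of values whole within 0.01, 9509792 to 16830845 per library), tested as an alternative over 14354 genes, which called 8124 in adipose, 8002 in muscle and 7689 in pancreas against MEFs; 825 genes had no usable step. Ndufs5 had 0 whole reads in all libraries but fragments in each, so reads shared with copies may be treated differently by the tables, and Ndufs5 is uncertain. Each gene's fragments were its FPKM times 1 fixed length and 1 library factor. Gene lengths come from the ratio of fragments to FPKM, scaled to whole bases with the RPKM steps.

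Other settings were upper quartile and RLE scaling, no filter, DESeq2 (1.42.0), 5 CPM in 2 libraries, only the groups compared, the replicate block, a length offset, both together, whole reads, limma-trend (3.58.1) on log2 FPKM with a pseudocount of 1 or 0.1, the former also for genes at 1 FPKM in 2 libraries only, and each library left out. Whole reads without adipose library 1 were added after seeing the data. The edgeR fit and the length offset were tested on simulated data.

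Members and lists were chosen with earlier results of these data known. Genes named were the paired isoforms and 10 core subunits, the called member with the largest rise and fall of each complex per comparison, 3 members with the highest and 3 with the lowest ratio between the adipose libraries, and up to 2 called genes of each other list per comparison with MEFs. Other called members are named in addition, and 2 genes are not reported here by name. RefSeq windows (GRCm38.p6) served for sequences only. Of the members, 81 matched a current symbol and 4 an older one; 16 had no window.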

Additional observations from a re-analysis of the deposited data

How the results depend on the processing

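Of 41 calls of a member against MEFs, 38 kept their direction in every alternative run and 8 were called in every one: Ndufa4l2 in all 3 tissues, Atp5a1 in muscle, Atp5b in muscle and pancreas, Ndufs1 in pancreas and Uqcrfs1 in adipose. The direction reversed for Cox6c in adipose with 1 library left out (log2 -0.068 without adipose library 1, 3.34 without adipose library 2), and on whole reads without adipose library 1, chosen after seeing the data, for Cox6c (-0.096), Ndufa11 (-0.099) and Ndufb2 (-0.032); none of these passed without library 1.

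Members called, in the order adipose, muscle and pancreas against MEFs, were 22, 8 and 11; shares in parentheses are of all genes called. Fits of only the groups compared gave 4, 27 and 27 (32.9%, 61.3% and 58.7%). The length offset gave 24 in muscle and 26 in pancreas (48.2% and 47.4%). For these tissues limma gave 26 and 20 on log2(FPKM + 1) (29.6% and 27.0%), 24 and 19 on log2(FPKM + 0.1) (28.2% and 24.4%), and 32 and 25 on genes at 1 FPKM in 2 libraries (48.3% and 43.9%). Whole reads without adipose library 1 gave 40 and 37 (66.2% and 65.0%), and DESeq2 44 in adipose (46.1%). Leaving out 1 of the 4 libraries compared gave 6 to 68 in adipose, 4 in muscle whichever was left out and 3 to 6 in pancreas. The lowest adipose counts, 7 and 6, came without MEF library 1 or 2 (28.1% and 33.1%), and the highest without adipose library 2 (61.6%). With 1 library left in a group, it is assumed to vary like the others. For muscle and pancreas, no share of all genes stands beside the counts with 1 library left out. Those counts therefore cannot tell a loss of calls particular to the members from a loss over all genes.

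Muscle against adipose went from 0 (6.12% of all genes) to 1 on whole reads (13.5%) and 30 by DESeq2 (13.0%). It gave 1 with the length offset. Pancreas against adipose went from 0 to 1 with upper quartile scaling, 2 with the length offset, 1 with the length offset and the replicate block, 6 on whole reads, 5 on whole reads without adipose library 1, 34 by DESeq2 and 1 by limma on log2(FPKM + 1), with or without the filter, and over 0 to 67 with 1 library left out. Pancreas against muscle gave 1 in a fit of only these groups and 0 without any 1 of their 4 libraries. Where no share of all genes stands beside a count, the count alone does not show a shift particular to the members. The cause of these shifts was not tested.

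The replicate block called 14 in adipose (6 higher and 8 lower), 9 in muscle and 10 in pancreas (48.5%, 43.3% and 41.9%), and with the length offset 24, 20 and 25 (52.6%, 47.5% and 46.1%). Deviations of same-numbered libraries correlated at -0.16 to 0.35 over the 6 pairs of groups, so the numbers were not taken as pairs. Depth allowed 3 fragments per library to stand for 0.108 to 0.193 CPM, so Cox7b2, Cox8b and Cox6a2 were at or near what could be detected.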
